A study of Homo sapiens with 12 samples.

Results

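The genes described here are 49 human DNA repair genes, listed by name and sorted into homologous recombination (16 genes), the Fanconi anaemia pathway (10), mismatch repair (4), base excision and single-strand break repair (9) and nucleotide excision repair (10). They were followed in 12 arrays after knockdown of PRKDC, which encodes DNA-PKcs, a kinase of another pathway, non-homologous end joining. The groups, with 3 samples in each, were TC32 with siPRKDC, TC32 with siNeg (the control siRNA), HCT116 with siPRKDC and HCT116 with siNeg, and every group had siRNA at 20 nM for 48 h. TC32 is a Ewing sarcoma line grown in RPMI-1640 and HCT116 is a colorectal carcinoma line grown in DMEM, so the line and its medium cannot be told apart. Each tumour type is represented by 1 line, and the labels give neither the siRNA sequences nor whether replicates came from separate cultures. The p-values therefore rest on a spread among samples that may be technical alone.

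A gene was tested where a probe paired with its symbol was detected (detection p below 0.05) on every array of 1 or more groups, which left 39 of the 49 genes among 10386 tested genes. BRCA2, RBBP8, FANCA and FANCD2 had no paired probe. RAD50, FANCC, FANCF, BRIP1, PMS1 and ERCC4 had probes that did not pass the detection filter, and their levels are not analysed here. Of the 77 probes of the listed genes 58 passed, and 13 of the tested genes had more than 1 such probe; the brightest stands for the gene. All but 2 of the tested genes, 37 of 39, were detected on all 12 arrays. The exceptions were DDB2, detected on 0 of 3 TC32 siPRKDC arrays and 1 of 3 TC32 siNeg arrays, and PALB2, detected on 2 of 3 HCT116 siPRKDC arrays. Values below are normalized log2 intensities, which compare 1 probe between samples and not 1 gene with another.

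Homologous recombination repairs double-strand breaks by copying an intact sister chromatid, and it works mainly in S and G2 phase. The Fanconi anaemia pathway unhooks crosslinks between the strands and hands the breaks that result to recombination. Mismatch repair corrects replication errors, base excision repair removes single damaged bases through a nick, and nucleotide excision repair cuts out bulky lesions such as those made by ultraviolet light. Many recombination and mismatch repair genes are transcribed most strongly when cells enter S phase.

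The knockdown was seen in both lines. PRKDC averaged 5.30 ± 0.323 in TC32 with siPRKDC, against 6.71 ± 0.169 in TC32 with siNeg, and 4.59 ± 0.171 in HCT116 with siPRKDC, against 7.25 ± 0.188 in HCT116 with siNeg (SD, n = 3 each). Its log2 change was -1.41 ± 0.138 in TC32 and -2.66 ± 0.138 in HCT116 (SE; limma, adjusted p = 3.80e-08 and 4.87e-11), so the fall was 2.65-fold in TC32 and 6.31-fold in HCT116. The PRKDC change itself differed between the lines, by 1.25 ± 0.195 (SE, limma, adjusted p = 4.59e-05). A difference between lines in a repair gene's change therefore cannot be told apart from the depth of the knockdown. The arrays detected 15396 to 18153 probes each, between 32.5% and 38.4% of 47322, with median intensities of 72.4 to 74.6. Under siNeg, 10 of 11 tested Ewing sarcoma markers were called higher in TC32 than in HCT116, against 30.1% of all tested genes. Of 11 tested epithelial and colon markers 9 were called lower, against 36.1% of all tested genes, and 1 was called higher, by 5.02.

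Repair genes were called in both directions in TC32. In HCT116 12 of the 14 calls were falls, 7 of these in homologous recombination, and 25 of the 39 genes were not called. In TC32 8 of the 39 tested genes rose (20.5%) and 9 fell (23.1%), where a call is an adjusted p below 0.05 over all tested genes. These shares were close to the 21.8% and 21% of all tested genes called in each direction there (42.7% in either). In HCT116 2 rose (5.13%) and 12 fell (30.8%), where 18.8% of all tested genes were called, 9.2% higher and 9.55% lower. The 12 that fell in HCT116 were BRCA1, BARD1, RAD51AP1, RAD54L, RAD54B, BLM, EXO1, FANCG, FANCL, MSH6, UNG and MUTYH, with UNG the most changed at -1.13, and the 2 that rose were NBN and POLB.

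The median log2 change over the 39 genes was 0.09 in TC32 and -0.10 in HCT116, where the medians over all tested genes were 0.01 and 0.00. The values of the siPRKDC and siNeg samples did not overlap for 26 genes in TC32 (66.7%, against 48.2% of all tested genes) and for 20 genes in HCT116 (51.3%, against 35.2%). Over both lines 3 genes fell in both (RAD54L, FANCG and UNG), 1 rose in both (NBN), and 3 rose in TC32 but fell in HCT116 (FANCL, MSH6 and MUTYH). The corresponding shares of all tested genes were 3.55%, 2.9% and 1.42%. The change differed between the lines for 15 genes, higher in TC32 than in HCT116 for 11 (28.2%, against 16.4% of all tested genes) and lower for 4 (10.3%, against 15.5%); 32% of all tested genes differed in either direction. The remaining pattern was a call in 1 line alone. In TC32 FANCE, APEX1, OGG1 and ERCC2 rose, and XRCC2, MRE11, PMS2, PARP2, LIG3 and ERCC5 fell. In HCT116 6 genes fell and POLB rose. Of all tested genes 17.4% rose and 16% fell in TC32 alone, and 4.57% fell and 4.93% rose in HCT116 alone. A call in 1 line alone is not by itself a difference between lines. In neither line were 15 of the 39 genes called, against 47.8% of all tested genes.

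**Figure D1:**
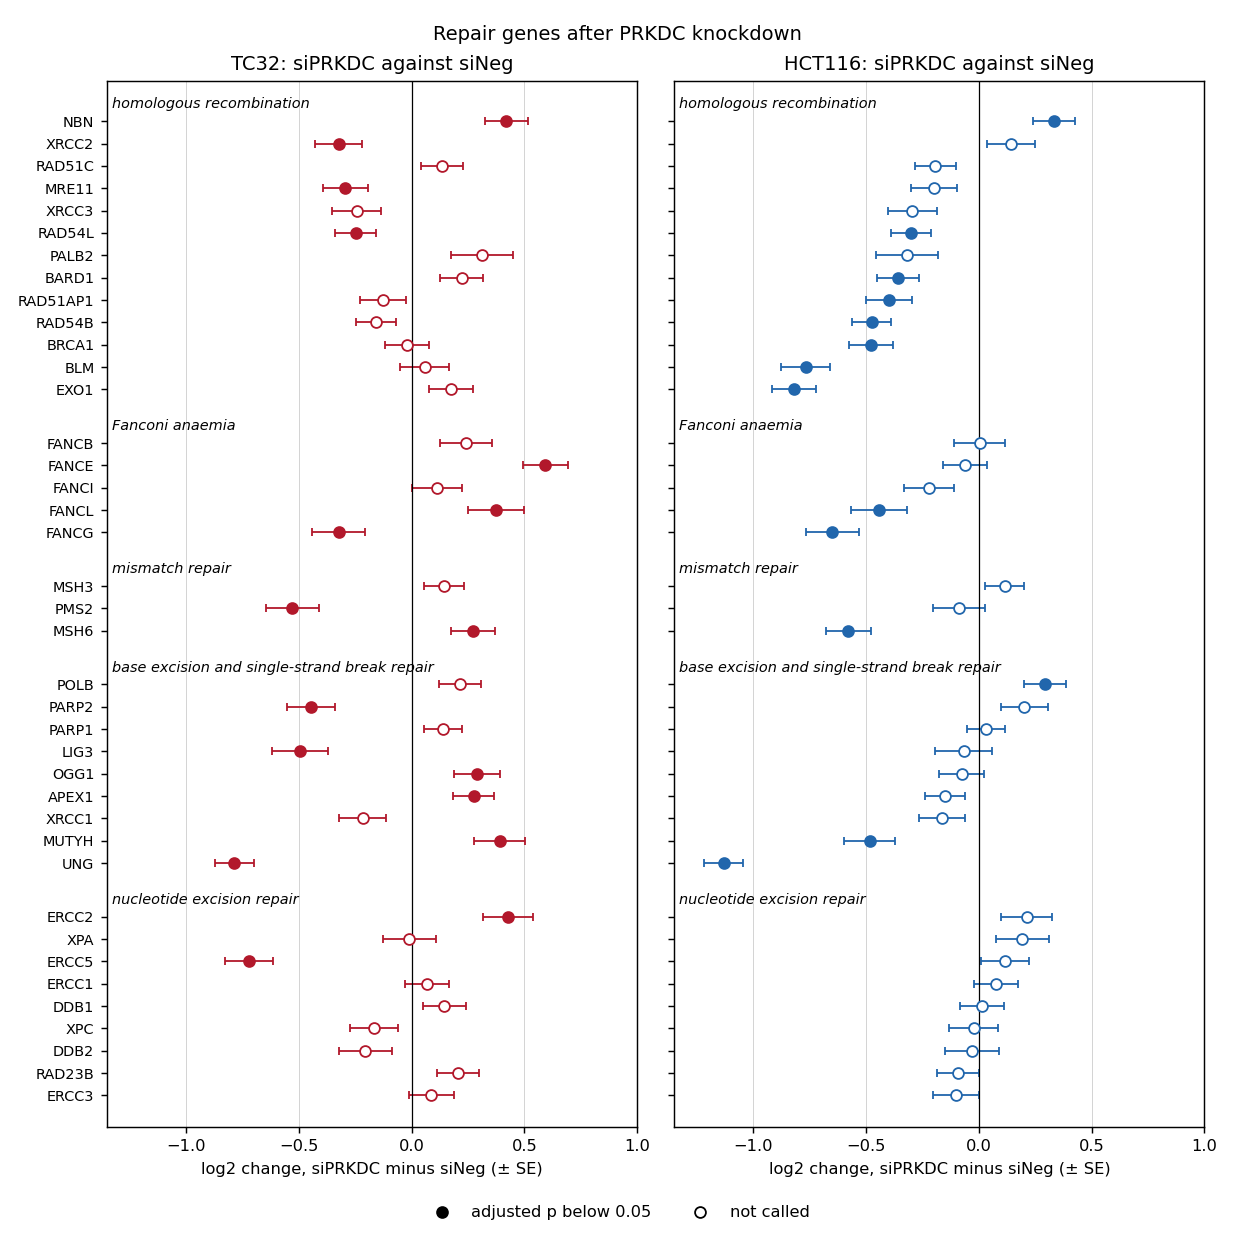
Log2 change (siPRKDC minus siNeg, horizontal axis) of each of the 39 tested repair genes, by pathway, in TC32 (left) and HCT116 (right). Points are fitted changes, bars are ± SE, and filled points have an adjusted p below 0.05. In HCT116 the filled points lie mostly left of 0, with UNG at -1.13, while in TC32 8 lie to the right and 9 to the left.

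Cell cycle genes were read beside the repair genes. Of 16 tested S phase and G1/S genes 4 were called higher (25%) and 2 lower (12.5%) in TC32, where the shares of all tested genes were 21.8% and 21%, and the median log2 change was 0.11. In HCT116 12 were called, each of them lower (75%, against 9.55% of all tested genes; median -0.47). RRM2, a subunit of ribonucleotide reductase, changed by 0.26 in TC32 (adjusted p = 0.0691) and by -1.17 in HCT116 (adjusted p = 2.90e-07). MCM7, of the replicative helicase, changed by 0.13 and CDC45, its partner, by 0.04 in TC32 (adjusted p = 0.249 and 0.794), and they fell by 0.67 and 0.63 in HCT116. Of 18 G2/M genes 11 were called lower (61.1%) and 1 higher (5.56%) in TC32 (median -0.31), and 10 were called in HCT116, each of them lower (55.6%; median -0.30). AURKA, a mitotic kinase, fell by 0.93 in TC32 and by 0.44 in HCT116. CCNB2, the cyclin B2 gene, fell by 0.59 in TC32 and changed by -0.21 in HCT116 (adjusted p = 0.102), and CDK1, its kinase partner, changed by -0.04 in TC32 (adjusted p = 0.809) and fell by 0.77 in HCT116.

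Of 13 tested p53 targets 3 were higher and 3 lower in TC32 (23.1% each, against 21.8% and 21% of all tested genes). In HCT116 2 were higher and 2 lower (15.4% each, against 9.2% and 9.55%). Changes were -0.63 to 1.36 in TC32 and -0.73 to 0.74 in HCT116. CDKN1A, an inhibitor of cyclin-dependent kinases, rose by 1.36 in TC32 and changed by -0.25 in HCT116 (adjusted p = 0.105). BAX, a pro-apoptotic gene, rose by 1.05 in TC32 and changed by 0.00 in HCT116 (adjusted p = 0.987). GDF15, a stress-induced cytokine, rose by 0.74 in HCT116, and in TC32 it was detected on 0 of 3 siPRKDC arrays and 1 of 3 siNeg arrays. The part of the cell cycle in the changes of the repair genes was not tested. The RNA came from all cells of a well, so fewer cells in a stage and less RNA per cell cannot be told apart.

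Promoters are shown for the 4 genes with the smallest adjusted p among those that fell in HCT116, since E2F, CHR and CCAAT words are elements by which many S phase and mitotic genes are controlled. The windows hold 250 bases before and 50 after a RefSeq start (GRCh38.p14), all on the plus strand, and capitals mark the words searched. The E2F words were TTTCCCGC, TTTCGCGC, TTTGCCGC and TTTGGCGC, the CHR word was TTTGAA, and the CCAAT box was CCAAT, each on both strands. The windows are UNG chr12:109097922-109098221, EXO1 chr1:241847954-241848253, BLM chr15:90717096-90717395 and MSH6 chr2:47782895-47783194, and where a gene has several windows the one with an E2F word is shown.
UNG: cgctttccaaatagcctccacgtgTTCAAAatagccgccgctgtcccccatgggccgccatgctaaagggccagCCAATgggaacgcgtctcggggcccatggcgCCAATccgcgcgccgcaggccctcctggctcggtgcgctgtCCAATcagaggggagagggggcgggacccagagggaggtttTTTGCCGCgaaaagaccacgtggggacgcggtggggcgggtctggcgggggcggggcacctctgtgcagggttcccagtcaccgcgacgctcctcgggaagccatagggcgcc
EXO1: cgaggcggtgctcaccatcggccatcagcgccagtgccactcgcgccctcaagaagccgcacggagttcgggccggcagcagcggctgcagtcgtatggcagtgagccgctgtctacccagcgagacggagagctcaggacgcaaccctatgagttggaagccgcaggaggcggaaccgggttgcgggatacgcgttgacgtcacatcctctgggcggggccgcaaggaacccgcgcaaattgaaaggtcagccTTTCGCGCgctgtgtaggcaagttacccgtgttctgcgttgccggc
BLM: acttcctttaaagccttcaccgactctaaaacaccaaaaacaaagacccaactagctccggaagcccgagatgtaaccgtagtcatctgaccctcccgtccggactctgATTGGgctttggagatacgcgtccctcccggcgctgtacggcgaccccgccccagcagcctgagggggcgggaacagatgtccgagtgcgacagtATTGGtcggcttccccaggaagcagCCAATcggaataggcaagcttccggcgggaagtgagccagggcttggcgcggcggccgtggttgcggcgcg
MSH6: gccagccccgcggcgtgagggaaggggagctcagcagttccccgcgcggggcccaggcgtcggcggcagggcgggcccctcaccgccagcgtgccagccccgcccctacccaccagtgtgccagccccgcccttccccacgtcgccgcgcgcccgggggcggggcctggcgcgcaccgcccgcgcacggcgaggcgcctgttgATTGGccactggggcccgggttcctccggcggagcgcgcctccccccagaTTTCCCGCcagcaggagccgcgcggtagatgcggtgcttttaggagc
None of the marked words overlap in these windows.

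The UNG window holds the E2F word TTTGCCGC starting at base -63 from the start, a CHR word at -226 on the minus strand and 3 CCAAT boxes. The EXO1 window holds TTTCGCGC at base 5, the MSH6 window holds TTTCCCGC at base 4 with a CCAAT box on the minus strand at -47, and the BLM window holds 3 CCAAT boxes and no E2F word. RefSeq windows were held for 35 of the 39 tested genes. An E2F word was present for 3 of the 11 genes with a window that fell in HCT116 (EXO1, MSH6 and UNG) and for 4 of the 24 not called there (XRCC2, MSH3, PMS2 and XPC). A CHR word was present for 2 of 11 (UNG and MUTYH) and 3 of 24, and a CCAAT box for 7 of 11 and 11 of 24. Of all 35093 RefSeq windows 3.32% held an E2F word, 15.2% a CHR word and 34.6% a CCAAT box; genes with several windows were counted if any held the word. The 11 genes had 20 windows and the 24 had 31, so counts of genes and shares of windows are unlike measures. A match is a description of letters and not a site.

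Homologous recombination, which had the most tested genes, held the largest number of falls in HCT116. Of its 13 tested genes 1 rose (7.69%) and 3 fell (23.1%) in TC32, against 21.8% and 21% of all tested genes (median -0.02). In HCT116 1 rose (7.69%) and 7 fell (53.8%), against 9.2% and 9.55% (median -0.32). The change was higher in TC32 than in HCT116 for 5 of them (38.5%, against 16.4%) and lower for 1 (7.69%, against 15.5%).

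EXO1 is an exonuclease that resects broken ends and also serves mismatch repair. Its values were 7.38, 7.40 and 7.35 in TC32 with siPRKDC, against 7.09, 7.20 and 7.32 with siNeg. In HCT116 they were 5.72, 5.91 and 5.75 with siPRKDC, against 6.65, 6.72 and 6.47 with siNeg. The siPRKDC samples were thus lower in HCT116 with a wide gap, and slightly higher in TC32, with no overlap in either line. The change was 0.18 ± 0.0971 in TC32 (adjusted p = 0.155) and -0.82 ± 0.0971 in HCT116 (adjusted p = 3.41e-06), and the lines differed by 0.99 ± 0.137 (adjusted p = 1.08e-05). A second, dimmer EXO1 probe, detected on 2 of 3 HCT116 siPRKDC arrays and on all others, was called in both lines, 0.28 in TC32 and -0.37 in HCT116 (adjusted p = 0.0446 and 0.0219 over all probes), and with the mean of both probes the TC32 change of 0.23 passed the test (adjusted p = 0.0409).

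BLM, the helicase that unwinds ends for resection and dissolves double Holliday junctions, measured 5.92, 6.02 and 5.94 in TC32 with siPRKDC, against 5.89, 6.03 and 5.79 with siNeg. The HCT116 values were 4.67, 5.09 and 5.03 with siPRKDC, against 5.77, 5.61 and 5.73 with siNeg. The groups overlapped in TC32 and were clearly apart in HCT116. BLM changed by 0.06 ± 0.108 in TC32 (adjusted p = 0.721) and by -0.77 ± 0.108 in HCT116 (adjusted p = 2.55e-05), a difference of 0.83 ± 0.152 (adjusted p = 0.000267).

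BRCA1 and BARD1 form the ubiquitin ligase that favours resection and recombinase loading. BRCA1 measured 6.23, 6.13 and 6.29 in TC32 with siPRKDC, against 6.25, 6.35 and 6.10 with siNeg, and the groups overlapped. HCT116 gave 4.83, 4.86 and 4.64 with siPRKDC, against 5.26, 5.31 and 5.20 with siNeg, and all siPRKDC samples were lower. The change was -0.02 ± 0.0959 in TC32 (adjusted p = 0.893) and -0.48 ± 0.0959 in HCT116 (adjusted p = 0.00111), and the lines differed by 0.46 ± 0.136 (adjusted p = 0.0131). Without background correction that difference was 0.16 (adjusted p = 0.0736). The second BRCA1 probe, paired with another transcript, changed by -0.15 in HCT116 (adjusted p = 0.318 over all probes).

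BARD1 measured 7.23, 7.16 and 7.15 in TC32 with siPRKDC, against 7.08, 6.89 and 6.91 with siNeg. In HCT116 the values were 4.81, 4.73 and 4.74 with siPRKDC, against 5.21, 5.18 and 4.95 with siNeg. The siPRKDC samples lay above all siNeg samples in TC32 and below them all in HCT116. The change was 0.22 ± 0.095 in TC32 (adjusted p = 0.0652) and -0.36 ± 0.095 in HCT116 (adjusted p = 0.0102), with a difference between lines of 0.58 ± 0.134 (adjusted p = 0.0022). Without HCT116 siNeg replicate 1 the HCT116 change was -0.31 (adjusted p = 0.0593), and without TC32 siNeg replicate 1 the TC32 change was 0.28 (adjusted p = 0.0364).

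PALB2, which bridges BRCA1 to BRCA2, measured 5.08, 5.39 and 5.39 in TC32 with siPRKDC, against 4.85, 5.19 and 4.88 with siNeg. The HCT116 samples gave 5.0, 4.30 and 4.68 with siPRKDC, against 4.90, 4.95 and 5.09 with siNeg. The groups overlapped in both lines, and HCT116 siPRKDC replicate 2 was the lowest of all 12 samples. Neither change passed the test, at 0.31 ± 0.138 in TC32 (adjusted p = 0.0737) and -0.32 ± 0.138 in HCT116 (adjusted p = 0.117), while their difference of 0.63 ± 0.195 did (adjusted p = 0.0166). Without HCT116 siPRKDC replicate 2 the difference was 0.45 (adjusted p = 0.0601). Each line gained a call when 1 sample was left out: TC32 without siPRKDC replicate 1 or siNeg replicate 2 (0.42 each, adjusted p = 0.034 and 0.0294) and HCT116 without siPRKDC replicate 1 (-0.49, adjusted p = 0.0188).

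RAD54L and RAD54B are translocases that act on the recombinase filament. RAD54L measured 6.02, 5.96 and 6.02 in TC32 with siPRKDC, against 6.26, 6.33 and 6.16 with siNeg, and 5.49, 5.36 and 5.41 in HCT116 with siPRKDC, against 5.61, 5.77 and 5.78 with siNeg. It was lower in all siPRKDC samples of both lines. The changes were of similar size, -0.25 ± 0.0902 in TC32 (adjusted p = 0.0303) and -0.30 ± 0.0902 in HCT116 (adjusted p = 0.022), and their difference was 0.05 with a 95% interval of -0.21 to 0.32. Both calls were close to the threshold. The TC32 call was lost without any 1 of the siPRKDC samples or siNeg replicates 1 and 2 (-0.26 to -0.21, adjusted p 0.0537 to 0.108), and the HCT116 call without siPRKDC replicate 2 or 3 or siNeg replicate 2 or 3 (-0.30 to -0.27, adjusted p 0.0609 to 0.0826).

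RAD54B measured 5.39, 5.42 and 5.50 in TC32 with siPRKDC, against 5.63, 5.51 and 5.64 with siNeg. In HCT116 the probe read 5.36, 5.28 and 5.28 with siPRKDC, against 5.80, 5.73 and 5.81 with siNeg. The gap was wide in HCT116, and in TC32 the groups were separated by a margin near 0. The change was -0.16 ± 0.0873 in TC32 (adjusted p = 0.157) and -0.47 ± 0.0873 in HCT116 (adjusted p = 0.000488), and the difference of 0.32 ± 0.123 did not pass the test (adjusted p = 0.0541).

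XRCC2 and NBN ran another way. XRCC2, a paralog of the recombinase, measured 7.89, 8.23 and 8.14 in TC32 with siPRKDC, against 8.40, 8.49 and 8.35 with siNeg, and 7.14, 7.06 and 7.37 in HCT116 with siPRKDC, against 7.02, 6.98 and 7.14 with siNeg. It was lower in all TC32 siPRKDC samples, and in HCT116 the groups overlapped. The change was -0.32 ± 0.105 in TC32 (adjusted p = 0.0162) and 0.14 ± 0.105 in HCT116 (adjusted p = 0.391), a difference of -0.47 ± 0.149 (adjusted p = 0.0197). The TC32 call was lost without siPRKDC replicate 1 or siNeg replicate 2 (-0.23 and -0.28, adjusted p = 0.117 and 0.0637). The difference between lines lost its call without TC32 siPRKDC replicate 1 or HCT116 siPRKDC replicate 3 (-0.37 and -0.38, adjusted p = 0.0687 and 0.0633).

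NBN, the signalling subunit of the complex that senses breaks with MRE11 and RAD50, measured 6.53, 6.60 and 6.37 in TC32 with siPRKDC, against 6.04, 6.16 and 6.03 with siNeg. Its HCT116 values were 6.27, 6.35 and 6.33 with siPRKDC, against 6.06, 5.85 and 6.03 with siNeg. All siPRKDC samples were above all siNeg samples of their line. NBN rose by 0.42 ± 0.0942 in TC32 (adjusted p = 0.00103) and by 0.33 ± 0.0942 in HCT116 (adjusted p = 0.0154), and the lines differed by 0.09, with a 95% interval of -0.19 to 0.36. Without HCT116 siPRKDC replicate 2 or siNeg replicate 2 its HCT116 change was 0.31 or 0.27 (adjusted p = 0.0551 and 0.086).

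The other 4 recombination genes were RAD51AP1, RAD51C, MRE11 and XRCC3. RAD51AP1, a cofactor of the recombinase, changed by -0.13 in TC32 (adjusted p = 0.34) and fell by 0.40 in HCT116 (adjusted p = 0.00765). MRE11, the nuclease of the break-sensing complex, fell by 0.29 in TC32 (adjusted p = 0.0216) and changed by -0.20 in HCT116 (adjusted p = 0.189). Its TC32 call was lost without siPRKDC replicate 2 or siNeg replicate 3 (-0.19 and -0.26, adjusted p = 0.154 and 0.0711), and its 2 dimmer probes changed by -0.22 and 0.23 there. XRCC3, another recombinase paralog, changed by -0.24 in TC32 and -0.30 in HCT116 (adjusted p = 0.0756 and 0.0613), and without TC32 siNeg replicate 2 its TC32 change was -0.36 (adjusted p = 0.0115).

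RAD51C, also a paralog of the recombinase, gave a result that depended on the probe. Its brightest probe changed by 0.14 ± 0.0915 in TC32 and -0.19 ± 0.0915 in HCT116 (adjusted p = 0.256 and 0.16). A pair of other probes, paired with a different RefSeq transcript of the gene, rose by 0.95 and 1.02 in TC32 (adjusted p = 4.14e-08 and 3.24e-08 over all probes). In HCT116 the same pair changed by -0.03 and -0.08 (adjusted p = 0.887 and 0.664), and the lines differed by 0.98 and 1.10. For the brightest probe the difference between lines was 0.33 (adjusted p = 0.0579), and it passed without TC32 siNeg replicate 3 or HCT116 siPRKDC replicate 3 (0.36 and 0.37, adjusted p = 0.0459 and 0.0474).

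**Figure D2:**
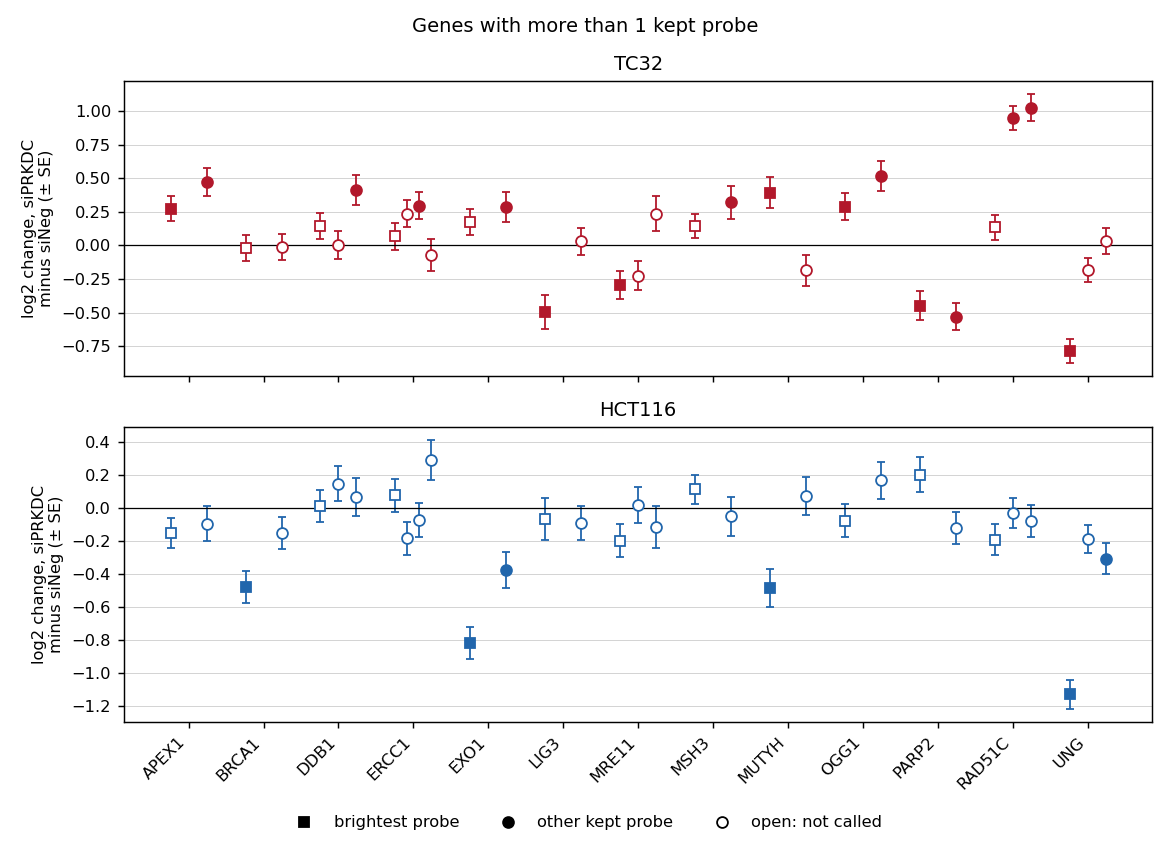
Log2 change (siPRKDC minus siNeg, vertical axis, ± SE) of every probe that passed the detection filter, for the 13 tested genes with more than 1, in TC32 (top) and HCT116 (bottom, on its own scale). Squares are the brightest probe and circles the others, and open symbols did not pass the test over all probes. Of the RAD51C probes in TC32, 2 lie near 1 while the brightest lies at 0.14.

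Of 16 other tested genes of homologous recombination, 5 rose and 6 fell in TC32 (31.2% and 37.5%, against 21.8% and 21% of all tested genes). The calls in HCT116 were 4 falls (25%, against 9.55%). RMI2, a subunit of the complex that works with BLM, fell by 1.63 ± 0.1 in TC32 (adjusted p = 2.71e-11) and by 0.96 ± 0.1 in HCT116 (adjusted p = 6.45e-07). RPA2, of the single-strand binding complex, rose by 0.54 in TC32 (adjusted p = 8.38e-05) and changed by -0.22 in HCT116 (adjusted p = 0.117). EME1, a subunit of a junction nuclease, fell by 0.40 in TC32 and by 0.43 in HCT116 (adjusted p = 0.00175 and 0.0024).

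Among the Fanconi anaemia genes, 2 of 5 tested rose and 1 fell in TC32 (40% and 20%, against 21.8% and 21% of all tested genes). The calls in HCT116 were 2 falls (40%, against 9.55%). FANCE, a core complex subunit that recruits FANCD2, measured 7.37, 7.15 and 7.43 in TC32 with siPRKDC, against 6.67, 6.65 and 6.85 with siNeg, and 6.29, 6.37 and 6.44 in HCT116 with siPRKDC, against 6.37, 6.51 and 6.41 with siNeg. It was clearly higher in all TC32 siPRKDC samples, and in HCT116 the groups overlapped. FANCE rose by 0.59 ± 0.0978 in TC32 (adjusted p = 4.13e-05) and changed by -0.06 ± 0.0978 in HCT116 (adjusted p = 0.734), a difference of 0.65 ± 0.138 (adjusted p = 0.000977).

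FANCL, the ubiquitin ligase of the core complex, measured 6.27, 6.26 and 6.26 in TC32 with siPRKDC, against 5.63, 5.96 and 6.07 with siNeg. HCT116 gave 5.66, 5.36 and 5.32 with siPRKDC, against 5.77, 5.75 and 6.15 with siNeg. The groups did not overlap in either line, with opposite orders. The change was 0.37 ± 0.124 in TC32 (adjusted p = 0.0179) and -0.44 ± 0.124 in HCT116 (adjusted p = 0.0144), and the lines differed by 0.82 ± 0.175 (adjusted p = 0.00109). Without TC32 siNeg replicate 1 the TC32 change was 0.25 (adjusted p = 0.137). The HCT116 call was lost without siPRKDC replicate 2 or 3 or siNeg replicate 3 (-0.40, -0.38 and -0.31, adjusted p = 0.0611, 0.0736 and 0.11).

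FANCG, which holds the core complex together, measured 6.36, 6.27 and 6.51 in TC32 with siPRKDC, against 6.67, 6.65 and 6.79 with siNeg. The HCT116 values were 6.14, 6.23 and 6.11 with siPRKDC, against 6.55, 7.13 and 6.74 with siNeg. All siPRKDC samples were below all siNeg samples of their line. FANCG fell by 0.32 ± 0.118 in TC32 (adjusted p = 0.0301) and by 0.65 ± 0.118 in HCT116 (adjusted p = 0.000431), and the difference of 0.33 did not pass the test (adjusted p = 0.142). The TC32 call was lost without siPRKDC replicate 1 or 2 or siNeg replicate 1 or 3 (-0.34 to -0.27, adjusted p 0.0511 to 0.114), and without HCT116 siNeg replicate 1 the lines differed by 0.45 (adjusted p = 0.0386). FANCB, a core subunit, and FANCI, a substrate of the ligase, passed in neither line, at 0.24 and 0.11 in TC32 and 0.00 and -0.22 in HCT116.

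Of 8 other tested Fanconi anaemia genes 4 rose and 1 fell in TC32 (50% and 12.5%, against 21.8% and 21% of all tested genes). The call in HCT116 was 1 fall (12.5%, against 9.55%). FAAP100, a core complex partner, rose by 0.77 ± 0.117 in TC32 (adjusted p = 1.66e-05) and changed by 0.00 in HCT116 (adjusted p = 0.994). UBE2T, the conjugating enzyme that serves FANCL, fell by 0.28 in TC32 and by 0.43 in HCT116 (adjusted p = 0.0201 and 0.0021). CENPS, a histone-fold partner of the pathway, rose by 0.28 in TC32 (adjusted p = 0.0239) and changed by -0.01 in HCT116 (adjusted p = 0.957).

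Mismatch repair was represented by 3 tested genes, and each behaved differently. MSH6, the MutS subunit that recognises base mismatches, measured 8.50, 8.67 and 8.52 in TC32 with siPRKDC, against 8.35, 8.27 and 8.24 with siNeg, and 6.66, 6.98 and 6.78 in HCT116 with siPRKDC, against 7.43, 7.45 and 7.27 with siNeg. All siPRKDC samples were above the siNeg samples in TC32 and below them in HCT116. The change was 0.27 ± 0.0983 in TC32 (adjusted p = 0.0291) and -0.58 ± 0.0983 in HCT116 (adjusted p = 0.000229), and the lines differed by 0.85 ± 0.139 (adjusted p = 7.51e-05). The TC32 call was lost without siPRKDC replicate 2 or siNeg replicate 2 or 3 (0.22, 0.26 and 0.25, adjusted p = 0.121, 0.0705 and 0.0813).

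PMS2, the endonuclease subunit that nicks the new strand, measured 4.91, 5.26 and 5.22 in TC32 with siPRKDC, against 5.73, 5.58 and 5.66 with siNeg. The HCT116 samples gave 5.35, 5.28 and 4.98 with siPRKDC, against 5.30, 5.13 and 5.45 with siNeg. The TC32 siPRKDC samples were all lower, and the HCT116 groups overlapped. PMS2 fell by 0.53 ± 0.116 in TC32 (adjusted p = 0.000821) and changed by -0.09 ± 0.116 in HCT116 (adjusted p = 0.671). The difference between lines, -0.44 ± 0.164, was just past the threshold (adjusted p = 0.0439) and lost its call without TC32 siPRKDC replicate 1, TC32 siNeg replicate 1 or 3, HCT116 siPRKDC replicate 1 or 2, or HCT116 siNeg replicate 1 or 2 (-0.44 to -0.33, adjusted p 0.0643 to 0.138), and with the replicate number as a block (adjusted p = 0.055).

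MSH3, the MutS subunit for larger loops, measured 12.07, 11.92 and 11.97 in TC32 with siPRKDC, against 11.76, 11.89 and 11.88 with siNeg. In HCT116 the probe read 12.06, 12.12 and 12.02 with siPRKDC, against 11.95, 11.97 and 11.94 with siNeg. The siPRKDC samples were above the siNeg samples by a small margin in both lines, and neither change passed the test, at 0.14 ± 0.0874 in TC32 and 0.11 ± 0.0874 in HCT116 (adjusted p = 0.204 and 0.415). A dimmer MSH3 probe, detected on all TC32 arrays but on 1 of 3 arrays in each HCT116 group, rose by 0.32 in TC32 (adjusted p = 0.0388 over all probes). Under siNeg the dimmer probe was 1.41 higher in TC32 than in HCT116 (limma, adjusted p = 9.90e-10 over all probes), while the brightest differed by -0.11 (adjusted p = 0.271).

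Other mismatch repair genes, of which 10 were tested and many also serve replication, showed 2 calls in TC32 and 5 in HCT116, each of them a fall. These were 20% and 50%, against 21% and 9.55% of all tested genes that fell. RFC4, of the clamp loader, fell by 0.35 in TC32 and by 0.57 in HCT116 (adjusted p = 0.00762 and 0.000364). RFC2, of the same loader, changed by 0.00 in TC32 (adjusted p = 0.986) and fell by 0.57 in HCT116 (adjusted p = 0.00204). POLD4, a small subunit of polymerase delta, fell by 0.50 in TC32 (adjusted p = 0.000235), where 1 of 3 siPRKDC arrays detected it, and changed by 0.25 in HCT116 (adjusted p = 0.0738).

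All 9 base excision and single-strand break repair genes were tested. In TC32 3 were higher and 3 lower (33.3% each, against 21.8% and 21% of all tested genes). In HCT116 1 was higher and 2 lower (11.1% and 22.2%, against 9.2% and 9.55%). UNG, the glycosylase that removes uracil from DNA, had the largest fall of the 39 genes in each line. It measured 7.36, 7.32 and 7.32 in TC32 with siPRKDC, against 8.15, 8.07 and 8.14 with siNeg, and 7.19, 7.23 and 7.28 in HCT116 with siPRKDC, against 8.38, 8.27 and 8.45 with siNeg. The groups were far apart in both lines, with little spread within any group. UNG fell by 0.79 ± 0.0868 in TC32 (1.72-fold, adjusted p = 2.28e-07) and by 1.13 ± 0.0868 in HCT116 (2.19-fold, adjusted p = 5.34e-09).

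The difference between the lines for UNG was 0.34 ± 0.123 (adjusted p = 0.0359). It lost its call without any 1 of 8 samples, namely each TC32 siPRKDC replicate, TC32 siNeg replicate 2, HCT116 siPRKDC replicate 1 or 2, and HCT116 siNeg replicate 1 or 3 (0.30 to 0.35, adjusted p 0.0529 to 0.0861). Of the dimmer UNG probes, 1 was detected on every array but those of TC32 with siPRKDC. It changed by -0.18 in TC32 and -0.19 in HCT116 (adjusted p = 0.102 and 0.155 over all probes). The other was detected on the HCT116 siNeg arrays alone, and changed by 0.03 and -0.31 (adjusted p = 0.823 and 0.0264). Their mean levels were 4.45 and 4.31, against 7.76 for the brightest. With the mean of the 3 probes UNG was still called in both lines (adjusted p = 0.00192 and 4.71e-05), but the difference was not (0.23, adjusted p = 0.0927).

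MUTYH, the glycosylase that removes adenine paired with oxidised guanine, measured 6.80, 6.89 and 6.99 in TC32 with siPRKDC, against 6.64, 6.23 and 6.64 with siNeg. Its HCT116 values were 6.65, 6.48 and 6.45 with siPRKDC, against 6.95, 7.18 and 6.90 with siNeg. The siPRKDC samples were all above the siNeg samples in TC32 and all below them in HCT116. MUTYH rose by 0.39 ± 0.114 in TC32 (adjusted p = 0.00822) and fell by 0.48 ± 0.114 in HCT116 (adjusted p = 0.00429), a difference of 0.87 ± 0.161 (adjusted p = 0.000267). Without TC32 siNeg replicate 2, the lowest TC32 value, the TC32 change was 0.25 (adjusted p = 0.0765). A dimmer probe, detected on 1 of 3 TC32 siPRKDC, 2 of 3 TC32 siNeg and 2 of 3 HCT116 siPRKDC arrays, changed by -0.19 in TC32 and 0.07 in HCT116 (adjusted p = 0.207 and 0.726 over all probes), and with the mean of both probes none of the 3 calls held (0.10, -0.21 and 0.31, adjusted p = 0.464, 0.188 and 0.116).

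PARP2, which senses single-strand breaks beside PARP1, measured 5.72, 5.82 and 5.55 in TC32 with siPRKDC, against 6.26, 6.02 and 6.16 with siNeg. HCT116 gave 6.46, 6.23 and 6.13 with siPRKDC, against 5.99, 6.19 and 6.04 with siNeg. All TC32 siPRKDC samples were lower, and the HCT116 groups overlapped. PARP2 fell by 0.45 ± 0.106 in TC32 (adjusted p = 0.00161) and changed by 0.20 ± 0.106 in HCT116 (adjusted p = 0.206), a difference of -0.65 ± 0.15 (adjusted p = 0.0021). Its dimmer probe fell by 0.53 in TC32 (adjusted p = 0.000192 over all probes) and changed by -0.12 in HCT116.

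APEX1, the endonuclease that cuts at sites without a base, measured 9.20, 9.27 and 9.15 in TC32 with siPRKDC, against 8.84, 8.95 and 9.01 with siNeg. The HCT116 samples gave 9.07, 9.08 and 9.02 with siPRKDC, against 9.19, 9.12 and 9.31 with siNeg. The groups did not overlap, with siPRKDC higher in TC32 and slightly lower in HCT116. The change was 0.27 ± 0.0899 in TC32 (adjusted p = 0.0172) and -0.15 ± 0.0899 in HCT116 (adjusted p = 0.28), and the lines differed by 0.42 ± 0.127 (adjusted p = 0.014). The TC32 call was lost without siPRKDC replicate 2 or siNeg replicate 1 (0.24 and 0.23, adjusted p = 0.0645 and 0.0799), while the dimmer probe rose by 0.47 in TC32 (adjusted p = 0.00105 over all probes).

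LIG3, the ligase that seals the nick with XRCC1, fell by 0.50 ± 0.125 in TC32 (adjusted p = 0.00272) and changed by -0.07 in HCT116 (adjusted p = 0.782); its dimmer probe was detected on 1 of 3 TC32 siPRKDC and 0 of 3 TC32 siNeg arrays, and with the mean of both the TC32 change was -0.23 (adjusted p = 0.0793). OGG1, the glycosylase for oxidised guanine, rose by 0.29 in TC32 (adjusted p = 0.0237) and changed by -0.08 in HCT116 (adjusted p = 0.674). Its TC32 call was lost without siPRKDC replicate 1 or 2 or siNeg replicate 1 (0.29, 0.21 and 0.24, adjusted p = 0.055, 0.142 and 0.0951), and its dimmer probe, detected on 2 of 3 siNeg arrays, rose by 0.52 there (adjusted p = 0.000746 over all probes). POLB, the gap-filling polymerase, changed by 0.21 in TC32 (adjusted p = 0.0718) and rose by 0.29 in HCT116 (adjusted p = 0.0325). Leaving out HCT116 siPRKDC replicate 1 or 3, or any HCT116 siNeg sample, ended the POLB call (0.22 to 0.29, adjusted p 0.0728 to 0.158), and without TC32 siNeg replicate 3 its TC32 change passed (0.26, adjusted p = 0.049). XRCC1, the scaffold, and PARP1 passed in neither line, at -0.22 and 0.14 in TC32 and -0.16 and 0.03 in HCT116. Without TC32 siPRKDC replicate 3 or siNeg replicate 2, XRCC1 changed by -0.29 in TC32 (adjusted p = 0.0492 and 0.0452).

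**Figure D3:**
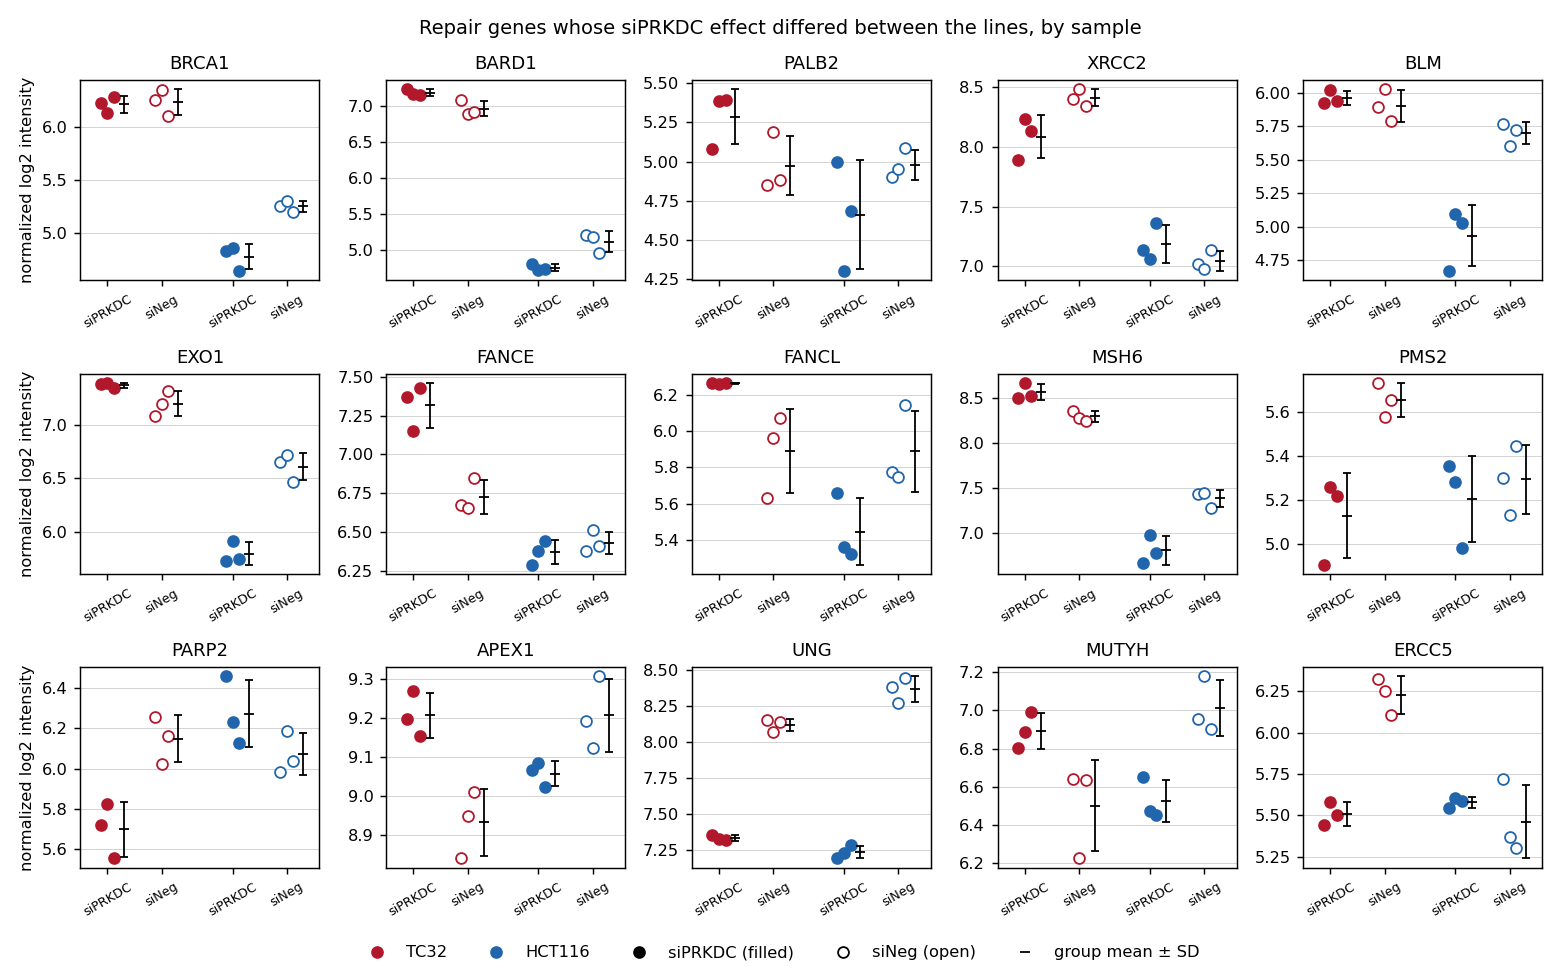
Normalized log2 intensity (vertical axis, a separate scale in each panel) of the 15 genes whose change differed between the lines, in every sample. Filled points are siPRKDC and open points siNeg, in red for TC32 and blue for HCT116, and bars give the group mean ± SD (n = 3). In TC32 the UNG siPRKDC samples lie between 7.32 and 7.36, and in HCT116 between 7.19 and 7.28.

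Of 12 other tested genes of base excision and single-strand break repair 3 rose (25%) and 4 fell (33.3%) in TC32. In HCT116 1 rose (8.33%) and 4 fell (33.3%). The shares of all tested genes were 21.8% and 21% in TC32, and 9.2% and 9.55% in HCT116. TDG, a thymine glycosylase, and FEN1, the flap nuclease, rose by 0.25 and 0.27 in TC32 (adjusted p = 0.038 and 0.035) and fell by 0.57 and 0.53 in HCT116 (adjusted p = 0.00025 and 0.000655). PARP3, a further poly(ADP-ribose) polymerase family member, fell by 0.50 in TC32 (adjusted p = 0.000316) and rose by 0.31 in HCT116 (adjusted p = 0.0322).

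Of the 9 tested nucleotide excision repair genes 1 rose and 1 fell in TC32 (11.1% each, against 21.8% and 21% of all tested genes). In HCT116 0 were called with limma, against 18.8% of all tested genes. There 0 also had an unadjusted p below 0.05, against 3149 of all 10386 genes. Whether the pathway differed from other genes was not tested. The HCT116 changes ran from -0.10 to 0.21. ERCC5, the nuclease that cuts beside the lesion, measured 5.44, 5.58 and 5.50 in TC32 with siPRKDC, against 6.33, 6.25 and 6.10 with siNeg, and 5.54, 5.60 and 5.59 in HCT116 with siPRKDC, against 5.72, 5.37 and 5.30 with siNeg. It was far lower in all TC32 siPRKDC samples, and the HCT116 groups overlapped. ERCC5 fell by 0.72 ± 0.105 in TC32 (adjusted p = 9.42e-06) and changed by 0.12 ± 0.105 in HCT116 (adjusted p = 0.51), a difference of -0.84 ± 0.149 (adjusted p = 0.000186).

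ERCC2, a helicase of the repair and transcription factor TFIIH, measured 5.48, 5.56 and 5.73 in TC32 with siPRKDC, against 4.96, 5.21 and 5.32 with siNeg. In HCT116 the probe read 5.59, 5.69 and 5.90 with siPRKDC, against 5.42, 5.67 and 5.45 with siNeg. All TC32 siPRKDC samples were higher, and the HCT116 groups overlapped. ERCC2 rose by 0.43 ± 0.112 in TC32 (adjusted p = 0.00384) and changed by 0.21 ± 0.112 in HCT116 (adjusted p = 0.213); the difference of 0.22 had a 95% interval of -0.11 to 0.55.

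RAD23B, a partner of the damage sensor XPC, measured 6.04, 6.11 and 6.11 in TC32 with siPRKDC, against 5.79, 5.84 and 6.02 with siNeg. Its HCT116 values were 5.91, 5.89 and 5.91 with siPRKDC, against 6.10, 5.87 and 6.03 with siNeg. The TC32 groups were just separated and the HCT116 groups overlapped. The changes were 0.20 ± 0.0936 and -0.09 ± 0.0936 (adjusted p = 0.0853 and 0.561), a difference of 0.30 (adjusted p = 0.0933), and without TC32 siNeg replicate 3 the TC32 change was 0.27 (adjusted p = 0.0332) and the difference 0.37 (adjusted p = 0.0418). XPC, ERCC1, ERCC3, XPA, DDB1 and DDB2 passed in neither line, with changes of -0.21 to 0.14 in TC32. Among their other probes, the dimmest of 3 DDB1 probes, detected on 1 of 3 TC32 siNeg arrays, rose by 0.41 and 1 of 4 ERCC1 probes rose by 0.30 in TC32 (adjusted p = 0.00639 and 0.0252 over all probes). Another ERCC1 probe, with a mean level of 7.28 against 7.31 for the brightest, changed by 0.24 in TC32 and -0.18 in HCT116 (adjusted p = 0.0707 and 0.247). Its difference between lines was called (0.42, adjusted p = 0.0323 over all probes), while that of the brightest was -0.01 (adjusted p = 0.963).

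In the wider pathway 2 of 11 other tested genes rose and 4 fell in TC32 (18.2% and 36.4%, against 21.8% and 21% of all tested genes). The calls in HCT116 were 3 falls (27.3%, against 9.55%). CETN2, a small partner of XPC, rose by 0.41 in TC32 (adjusted p = 0.00149) and fell by 0.49 in HCT116 (adjusted p = 0.000943). CDK7, the kinase of TFIIH, and ERCC8, of transcription-coupled repair, fell by 0.48 and 0.54 in TC32 (adjusted p = 0.000519 and 0.00149) and changed by -0.09 and 0.05 in HCT116 (adjusted p = 0.623 and 0.831). The gene lists beyond the 49 repair genes were chosen with earlier results of these arrays known, and their counts are descriptions.

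The 2 lines also differed without the knockdown. Under siNeg, 15 of the 39 genes were called higher in TC32 than in HCT116 (38.5%, against 30.1% of all tested genes) and 7 lower (17.9%, against 36.1%), where 66.2% of all tested genes were called in either direction, and the values of the lines did not overlap for 25 (64.1%, against 68.4%). The median difference over the 39 genes was 0.09, and it was -0.12 when arrays were scaled by their medians, which moved the median over all genes to -0.21. With that scaling 11 of the 39 genes were called higher in TC32 and 14 lower, against 2184 and 4923 of all 10386 tested genes. Without it 3125 and 3752 of all tested genes were called. The balance of the calls thus moved with the scaling in the same direction for the 39 genes and for all genes. Recombination genes were higher in TC32 for 7 of 13 (53.8%, against 30.1% of all tested genes) and lower for 1 (7.69%, against 36.1%).

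The 8 genes with the largest positive differences under siNeg were BARD1 (1.84), XRCC2 (1.37), BRCA1 (0.98), MSH6 (0.91), ERCC5 (0.77), MRE11 (0.67), ERCC1 (0.62) and LIG3 (0.61), with adjusted p-values of at most 0.000185. BARD1 was 3.59-fold higher in TC32, and XRCC2 was 2.58-fold higher. The 8 with the most negative differences were RAD51C (-1.30), POLB (-0.93), DDB1 (-0.58), MUTYH (-0.51), ERCC2 (-0.35), APEX1 (-0.27), UNG (-0.25) and DDB2 (-0.24), all called but DDB2 (adjusted p = 0.0836), which 1 of 3 TC32 siNeg arrays detected. RAD51C was 2.47-fold lower in TC32. All of its 3 probes that passed the filter were lower in TC32, at -1.30, -1.09 and -1.49. Dimmer probes of some named genes differed from the brightest. For ERCC1 they were at 0.61, 0.92 and -0.44 (the last, adjusted p = 0.00302 over all probes, detected on 1 of 3 TC32 siNeg arrays). The LIG3 one was at -0.19 (adjusted p = 0.118), and the mean of both at 0.21 (adjusted p = 0.0781). Those of DDB1 were at 0.10 and -0.19, of MRE11 at 0.56 and 0.12, and of MUTYH at 0.00, with 0.56 alone called.

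Several of these calls rested on single siNeg samples. Those of APEX1, UNG and ERCC2 were lost without TC32 siNeg replicate 1 or HCT116 siNeg replicate 3 (APEX1, -0.23 and -0.22, adjusted p = 0.0541 and 0.0562), TC32 siNeg replicate 2 or HCT116 siNeg replicate 3 (UNG, -0.22 and -0.21, adjusted p = 0.054 and 0.0698), and TC32 siNeg replicate 1 or HCT116 siNeg replicate 2 (ERCC2, -0.25 and -0.27, adjusted p = 0.076 and 0.0633). Those of FANCE (0.29), PMS2 (0.36) and RAD51AP1 (0.27) were lost too: FANCE without TC32 siNeg replicate 3 (0.23, adjusted p = 0.0602), PMS2 without HCT116 siNeg replicate 2 (0.28, adjusted p = 0.0603), and RAD51AP1 without TC32 siNeg replicate 1 or HCT116 siNeg replicate 1 or 3 (0.21 to 0.26, adjusted p 0.057 to 0.115).

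**Figure D4:**
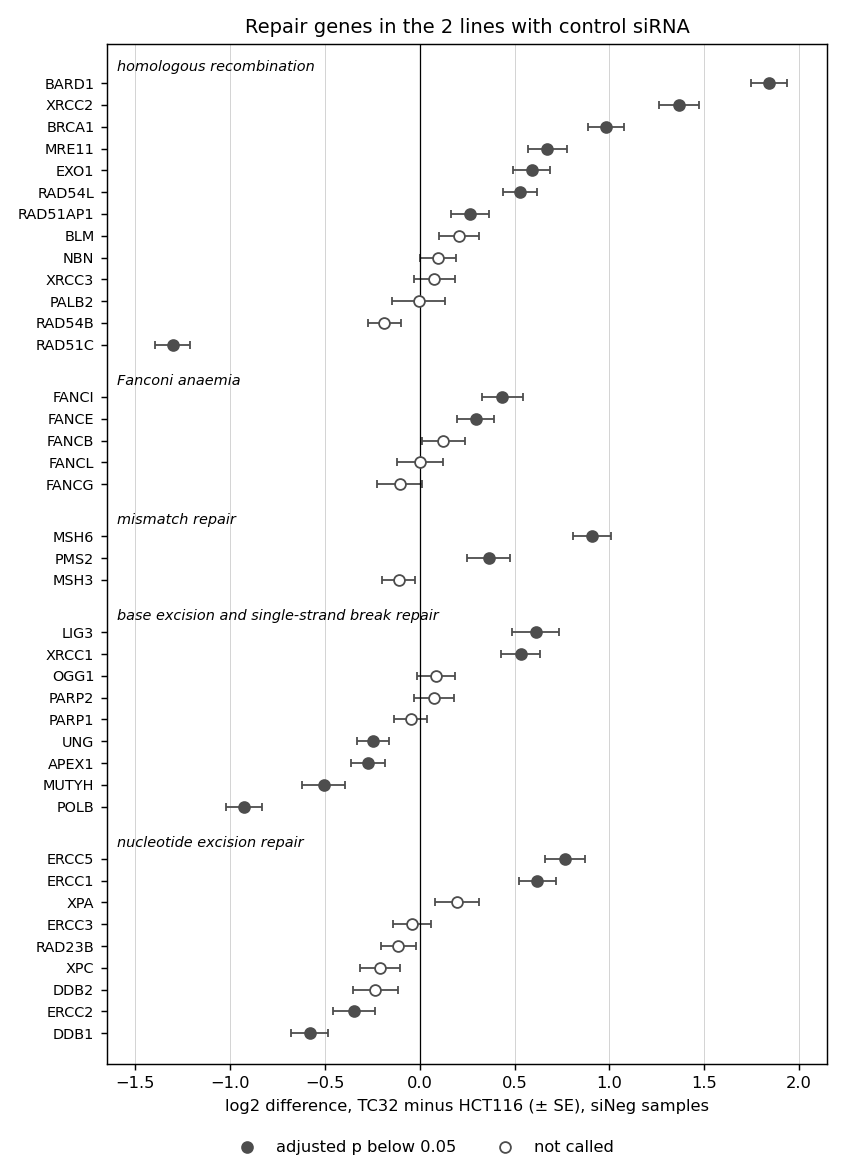
Log2 difference between the lines under siNeg (TC32 minus HCT116, horizontal axis, ± SE) for the 39 tested repair genes, by pathway; filled points have an adjusted p below 0.05. BARD1 lies farthest right at 1.84 and RAD51C farthest left at -1.30.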

How the data were processed

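RNA of the 12 samples was hybridised to HumanHT-12 v4 arrays. The deposited intensity values are linear and not background-corrected, and each has a detection p-value, per the file headers. The authors also deposited log2 values, normalized within each line, used here as an alternative. GenomeStudio, R 3.0.2 and lumi are named, per the submitters' processing notes; their settings are not stated there.

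Intensities were corrected with limma 3.58.1 (R 4.3.3; normexp with background inferred from the detection p-values, offset 16), quantile normalized and put on a log2 scale. The detection filter kept 16555 of 47322 probes, of which 13396 had 1 gene, and the brightest probe per gene left 10386 genes. A single gene was annotated for 30113 probes, several for 8 and none for 17201. A limma cell-means model over the 4 groups (8 residual and 13.5 prior degrees of freedom) gave 4 comparisons: siPRKDC against siNeg in each line, the TC32 minus the HCT116 change, and TC32 against HCT116 under siNeg. Tests were two-sided, and p-values were adjusted by Benjamini-Hochberg over all tested genes of a comparison; probe values were adjusted over all kept probes. An exact permutation test of 3 samples against 3 cannot go below 0.1, so none was used. Numbers of arrays limit the precision, and the SE of a change was 0.0855 to 0.138.

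Values in every sample are given for genes called in both lines, genes whose change differed between lines, and up to 3 genes per pathway with the smallest p. The listed genes, the other lists and this rule were chosen with earlier results of these data known. The labels do not say what the replicate numbers pair, so the numbers were not treated as pairs. Deviations of same-numbered siPRKDC and siNeg samples of a line correlated at 0.00 to 0.11. No slide or scan label was available here to test as a batch.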

Additional observations from a re-analysis of the deposited data

Results flagged for a closer look

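For 15 of the 39 repair genes the siPRKDC change differed between the lines by the interaction test, against 32% of all tested genes. PRKDC itself fell less in TC32 than in HCT116, so the line and the depth of the knockdown cannot be told apart here. The difference (TC32 change minus HCT116 change, log2) was positive for 11. It was 0.99 for EXO1 (adjusted p = 1.08e-05), 0.87 for MUTYH (adjusted p = 0.000267), 0.85 for MSH6 (adjusted p = 7.51e-05), 0.83 for BLM (adjusted p = 0.000267) and 0.82 for FANCL (adjusted p = 0.00109). It was 0.65 for FANCE (adjusted p = 0.000977), 0.63 for PALB2 (adjusted p = 0.0166), 0.58 for BARD1 (adjusted p = 0.0022), 0.46 for BRCA1 (adjusted p = 0.0131), 0.42 for APEX1 (adjusted p = 0.014) and 0.34 for UNG (adjusted p = 0.0359).

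The difference was negative for 4 genes, -0.84 for ERCC5 (adjusted p = 0.000186), -0.65 for PARP2 (adjusted p = 0.0021), -0.47 for XRCC2 (adjusted p = 0.0197) and -0.44 for PMS2 (adjusted p = 0.0439). In these the TC32 siPRKDC samples all lay below the TC32 siNeg samples, while the HCT116 groups overlapped. Of the S phase and G1/S genes 11 of 16 had a positive difference (68.8%, against 16.4% of all tested genes) and 0 a negative one (against 15.5%) by the same test.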

How the results depend on the processing

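With 3 samples a group, many calls near the threshold were lost when 1 sample was left out, and DDB2 in TC32 was near background. Alternatives with 1 value per gene were counted, including each sample of the compared groups left out in turn. Under all of these 7 of 17 TC32 calls held (NBN, FANCE, PMS2, PARP2, UNG, ERCC2 and ERCC5). So did 8 of 14 HCT116 calls (BRCA1, RAD51AP1, RAD54B, BLM, EXO1, FANCG, MSH6 and UNG). Differences between lines held for 9 of 15 (BARD1, BLM, EXO1, FANCE, FANCL, MSH6, PARP2, APEX1 and ERCC5), and calls under siNeg for 14 of 22. The fit over all probes was not counted. In it the second BRCA1 probe was not called in HCT116 (-0.15, adjusted p = 0.318), nor the dimmer UNG probes in TC32 (-0.18 and 0.03, adjusted p = 0.102 and 0.823). The second EXO1 probe was called in HCT116 and the second PARP2 probe in TC32. The causes of the changes listed here were not tested.

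With 1 sample left out, the repair genes called higher in TC32 numbered 5 to 9 (8 with all samples, 5 without TC32 siPRKDC replicate 2). In HCT116 they numbered 0 to 1 (2 with all samples, with 0 without HCT116 siNeg replicate 2 and 1 without any other). Over all tested genes the counts were 2005 to 2110 in TC32 (2261 with all samples) and 713 to 760 in HCT116 (956 with all samples). The differences between lines that were negative numbered 2 to 4 (4 with all samples, 2 without TC32 siPRKDC replicate 1). Over all tested genes they numbered 1442 to 1609 (1613 with all samples). With each of the 58 probes counted by itself, 16 were higher with siPRKDC than with siNeg in TC32, against 2738 of all 13396 probes. Under siNeg 13 of the 58 were lower in TC32 than in HCT116, against 4624 of all 13396 probes. Median scaling gave 0 repair genes higher in HCT116, 18 positive and 2 negative differences between lines, and 11 genes higher and 14 lower in TC32 than in HCT116 under siNeg. Over all tested genes it gave 676 higher in HCT116, with 2081 positive and 1228 negative differences. Under siNeg 2184 of all tested genes were then higher and 4923 lower in TC32. The scaling put the share of calls that were higher, over all genes, at 33.2% in HCT116, 62.9% for the difference and 30.7% under siNeg, against 49.1%, 51.4% and 45.4%. Under siNeg, RAD51AP1 reversed to -0.015 with median scaling (adjusted p = 0.909), and MSH3, not called by its brightest probe, reversed to 0.65 with the mean of its probes (adjusted p = 2.02e-06), a value that rests on a probe detected on 1 of 3 HCT116 siNeg arrays. With detection p below 0.01 on all 12 arrays, 1018 genes were lower in the difference and 2294 under siNeg, against 1613 and 3752, with 6425 genes tested.

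The replicate number as a block gave 8 higher and 9 lower in TC32 and 2 higher and 12 lower in HCT116, the counts found without it. The difference between lines had 12 positive calls with the block, against 11, as that of OGG1 (0.36, adjusted p = 0.0436) was gained. It had 4 negative calls with and without the block. Among these LIG3 (-0.43, adjusted p = 0.0319) was gained and PMS2 (-0.44, adjusted p = 0.055) was lost.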
